A study of Drosophila melanogaster with 36 samples.

Results

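Proximal cells of the haltere disc and of the wing disc were compared through 4 RNA-seq libraries, 2 of haltere tsh and 2 of wing tsh cells. The series holds 8 RNA-seq libraries among 36 samples. The libraries were chosen by their labels, as those of cells marked through tsh-Gal4, and no measured value entered the choice. Imaginal discs are sacs of epithelium in larvae of Drosophila melanogaster that form adult structures. The wing disc gives the wing with the notum (the dorsal thorax), and the haltere disc gives the haltere, a small balancing organ, with the narrow body wall around it. Both tsh groups were of genotype yw;tsh.gal4;uas-kash.GFP, came from wandering larvae of the L3 stage kept at 25 °C, and received no treatment that the labels name. The haltere nub and wing nub groups, 2 libraries each, were of genotype yw;nub.gal4;uas-kash.GFP and of the same stage, and they entered the model as a comparison with distal cells. All groups therefore carried the yw background, a Gal4 driver and GFP fused to KASH, a domain that anchors proteins in the nuclear envelope. The driver defines the sorted cells as those in which tsh regulatory DNA was active, so a tsh library is a mixture of every proximal cell type so marked. The labels do not say how many larvae were pooled or whether replicates came from separate cohorts, and any p-value therefore speaks of the spread between these libraries, which could be technical.

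Hox genes encode transcription factors that give body segments their identity. In the thorax, Antp is expressed in the segment that bears the wing, and Ubx in the segment that bears the haltere, where it changes the genetic program that would otherwise build a wing. The gene tsh marks the proximal part of each disc, from which the body wall and the base of the appendage form, and this part of the wing disc also overlies the precursors of the flight muscles. The comparison asked how the proximal cells of these segments differed in their RNA.

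The haltere tsh libraries held 15110163 and 17556152 counts, and the wing tsh libraries 15583085 and 16964968. A single read was worth between 0.0570 and 0.0662 CPM (counts scaled to 1e6 per library) in these libraries. Wing tsh replicate 1 stood apart from the rest, with 5186 genes between 1 and 5 CPM against 1822 to 2312 in the 7 others. Over 6261 genes that stayed under 0.5 CPM in those 7 libraries, its median was 0.706 CPM, and these genes held 0.576% of its counts against 0.0243% to 0.0610% elsewhere. Across genes, which are not independent replicates, Pearson's r between the log2 levels of the wing tsh replicates was 0.975, and between those of the haltere tsh replicates 0.992. A gene was therefore counted as changed under 3 conditions. It passed the test over all 4 libraries, it reached a mean of 5 CPM in one tsh group, and wing tsh replicate 2 on its own lay beyond both haltere libraries in the direction of the change. The plot of genes detected by level shows where this library leaves the other 3.

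**Figure D1:**
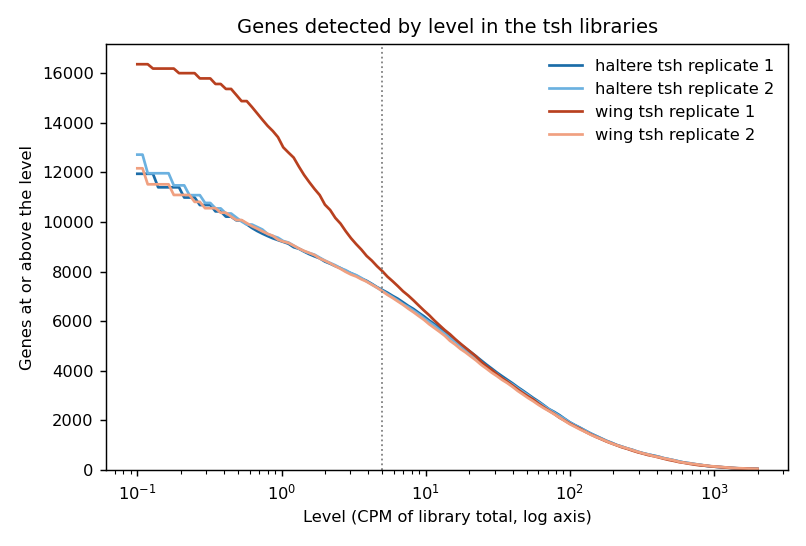
Number of genes at or above each level (y axis) against the level in CPM of the library total (x axis, log scale) for the 4 tsh libraries, 1 line each, with a dotted line at 5 CPM. Wing tsh replicate 1 lies above the others below 5 CPM, and at 5 CPM it has 8019 genes against 7207 to 7261 in the other 3.

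Most large differences between the proximal cells were losses in the haltere. Haltere cells had less of the Hox gene Antp, the FGF ligand gene ths, the adhesion gene Con, the Wnt ligand gene Wnt2 and the secreted regulator gene ltl. They had more of the Hox gene Ubx, the cuticle gene Cpr47Ee and the chitinase gene Cht5. Of 11198 genes tested, 365 (3.26%) were called by edgeR's quasi-likelihood test at a Benjamini-Hochberg adjusted p under 0.05. Of these, 116 were higher in haltere cells (1.04%) and 249 lower (2.22%). All 116 higher genes and 224 of the lower genes (2.00%) also met the level and agreement conditions, 340 in all (3.04%). The other 25 lower genes failed the level of 5 CPM, and the agreement condition removed no called gene. The change was at least 2-fold in 113 of the 224 lower genes and in 22 of the 116 higher ones, and at least 4-fold in 43 and 6. The median size on the log2 scale was 1.01 for the lower and 0.61 for the higher genes, while the median log2 fold change (haltere over wing) of all genes tested was -0.03. The values of the tsh groups did not overlap in any of the 340, a condition that 42.5% of all genes tested met. Where non-overlap is given below for a called gene, it therefore adds nothing to the call. Fitted without wing tsh replicate 1, 191 of the lower genes (85.3%) and 76 of the higher genes (65.5%) were called again in the same direction. Without haltere tsh replicate 1, 159 of the 340 calls remained, and without haltere tsh replicate 2, 188. RNA from bulk cells was measured, so fewer cells of a type and less RNA per cell cannot be told apart.

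**Figure D2:**
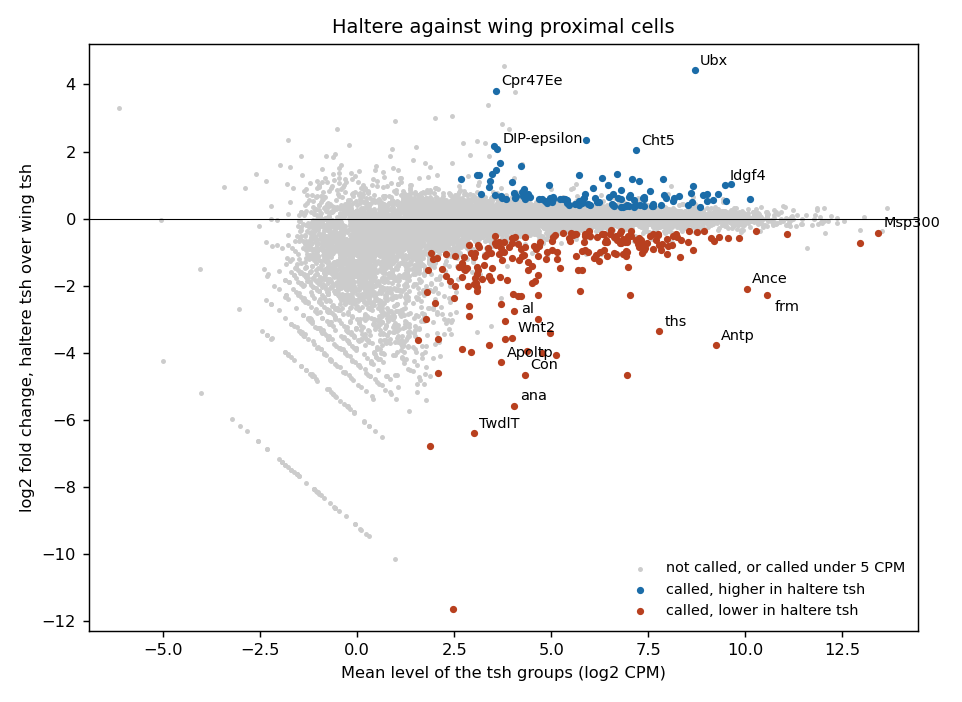
Log2 fold change of haltere over wing tsh cells (y axis) against the mean level of the tsh groups in log2 CPM (x axis), 1 point per gene tested with a tsh count. Blue points are the 116 higher and red points the 224 lower genes that met all conditions, grey points the rest. The called lower genes reach further from 0, as with TwdlT at -6.41 or CG4607 at the lower edge, whose fitted value rests on 0 haltere counts and is no bound, than the called higher ones, of which Ubx is the furthest at 4.42, and grey points fan downward at low level.

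The Hox genes followed the segment labels. Ubx (3R, 16656623 to 16734426) stood at 769 and 818 CPM in haltere cells and 37.0 and 37.1 CPM in wing cells, a log2 fold change of 4.42 ± 0.31 (SE, adjusted p = 0.000435). Its haltere values lay far above both wing values, and the wing values were close to each other and not 0. Without wing tsh replicate 1 the fold change was 4.42 with an adjusted p of 0.0551. Antp (3R, 6896253 to 6999228) went the other way, at 95.4 and 69.9 CPM in haltere cells and 999 and 1264 CPM in wing cells, and was called without any single library. For Antp the log2 fold change was -3.78 ± 0.17 (adjusted p = 2.08e-06). At the same locus 3 long non-coding RNA genes fell as well: CR45559 and CR44932, which lie just outside the Antp annotation, the nearer 125 bases away, and CR43252, which lies inside it. The RNA of lncRNA:CR44932 (3R, 6895178 to 6896128) stood at 2.96 and 2.11 CPM in haltere cells and 33.1 and 44.51 CPM in wing cells. For lncRNA:CR44932 the log2 fold change was -3.94 ± 0.24 (adjusted p = 2.40e-06). For lncRNA:CR45559 (3R, 6892918 to 6893462) the values were 0.263 and 0.400 CPM in haltere cells and 8.41 and 7.93 CPM in wing cells, a change of -4.60 ± 0.55. Those of lncRNA:CR43252 (3R, 6903442 to 6904682) were 5.14 and 5.65 CPM in haltere cells and 51.3 and 64.2 CPM in wing cells. Its change of -3.42 ± 0.39 had an adjusted p of 0.0525 without haltere tsh replicate 1. The use of strand in counting is not given in the sources used here, so reads of CR43252 cannot be told apart from those of Antp. The edgeR test and limma voom each called 2 of the 7 Hox genes tested, and DESeq2 called 4. Of those that edgeR did not call, Scr, the Hox gene of the segment in front, was raised in wing tsh replicate 1 alone (0.263 and 0.285 against 5.77 and 0.437 CPM).

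The driver gene tsh itself was at 898 and 839 CPM in haltere cells and 689.5 and 764 CPM in wing cells, and it did not pass the test (0.26 ± 0.17, adjusted p = 0.456). In nub cells its mean was 26.5 CPM in haltere and 15.5 in wing, so both tsh groups carried the mark they were sorted by. Its partner hth, a homeobox gene of proximal cells, stood at 3594 and 3831 CPM in haltere cells and 3165 and 3749 CPM in wing cells and did not pass either (adjusted p = 0.628). Among 19 regulators of the notum and proximal disc that were tested, 5 fell, 2 rose and the median log2 fold change was -0.28. The Pax gene eyg, which acts in notum development, stood at 46.1 and 42.4 CPM in haltere cells and 108 and 103 CPM in wing cells. For eyg the log2 fold change was -1.26 ± 0.11 (adjusted p = 6.28e-05). Its neighbouring paralog toe stood at 34.5 and 27.8 CPM in haltere cells and 70.0 and 65.5 CPM in wing cells, and fell too (-1.12 ± 0.15, adjusted p = 0.000945). The haltere values of both genes were below both wing values. The gene sr, a zinc finger factor of tendon precursor cells, stood at 44.8 and 45.7 CPM in haltere cells and 94.2 and 98.8 CPM in wing cells. For sr the log2 fold change was -1.09 ± 0.12 (adjusted p = 0.000312). The tsh paralog tio (-0.79 ± 0.12) and vn (-0.72 ± 0.08), which encodes a neuregulin-like ligand of the EGF receptor, fell less, and tio had an adjusted p of 0.0513 without haltere tsh replicate 2. The GATA factor gene pnr of the dorsal midline was at 53.2 and 48.1 CPM in haltere cells and 107 and 104 CPM in wing cells. It was lower in both haltere libraries but did not pass (-1.05 ± 0.24, adjusted p = 0.0722). The homeobox gene Dr rose, with 411 and 361 CPM in haltere cells and 227 and 258 CPM in wing cells (0.67 ± 0.11). The LIM-homeobox gene tup rose as well, with 113 and 106 CPM in haltere cells and 72.9 and 65.8 CPM in wing cells (0.66 ± 0.12). Without haltere tsh replicate 1 the adjusted p was 0.0734 for Dr and 0.146 for tup, and without haltere tsh replicate 2 it was 0.0617 for tup. The Iroquois genes ara (-0.16), caup (-0.28) and mirr (-0.01), which pattern the notum, did not pass the test. The genes eya (-1.01 ± 0.13, adjusted p = 0.000752) and dac (-0.95 ± 0.14, adjusted p = 0.00194), known for their part in eye formation, fell. With eyg and toe these made 4 of 12 genes of the Iroquois and eye lists lower and none higher, with a median of -0.67 (-0.22 without wing tsh replicate 1).

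Of 12 hinge genes, which act where the appendage joins the body, 3 rose and 1 fell, with a median of -0.02 (3 and 2 calls without wing tsh replicate 1). The T-box gene Doc3 stood at 17.8 and 16.9 CPM in haltere cells and 7.18 and 5.49 CPM in wing cells. For Doc3 the log2 fold change was 1.46 ± 0.16 (adjusted p = 0.000282). Its neighbour Doc2 stood at 14.3 and 13.2 CPM in haltere cells and 7.80 and 6.55 CPM in wing cells (0.94 ± 0.14, adjusted p = 0.00219). Both haltere libraries were above both wing libraries for either gene. The third member of the cluster, Doc1, stood at 15.9 and 13.7 CPM in haltere cells and 12.2 and 13.6 CPM in wing cells and did not pass (0.20 ± 0.14, adjusted p = 0.493). Sox15, an HMG-box gene of the hinge, rose too, with 302 and 297 CPM in haltere cells and 185 and 206 CPM in wing cells (0.61 ± 0.08, adjusted p = 0.00142). The homeobox gene ct fell, with 126 and 123 CPM in haltere cells and 184 and 203 CPM in wing cells (-0.63 ± 0.09, adjusted p = 0.00201).

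Among 18 genes of the distal appendage, 5 fell and 2 rose, with a median of -0.33. The POU factor gene nub stood at 10.5 and 10.3 CPM in haltere cells and 38.7 and 36.1 CPM in wing cells. For nub the log2 fold change was -1.85 ± 0.10 (adjusted p = 1.46e-06). The zinc finger gene rn of the wing pouch stood at 4.81 and 7.71 CPM in haltere cells and 33.4 and 28.9 CPM in wing cells (-2.30 ± 0.17, adjusted p = 1.98e-05). Haltere values of nub and rn were below both wing values, and the values of nub were small beside the mean nub level of nub cells, 1039 CPM in haltere and 1619 in wing. The homeobox gene dve (-1.46 ± 0.17), the nuclear receptor gene knrl (-0.70 ± 0.09) and the wing selector gene vg (-0.38 ± 0.09) fell too. For vg the adjusted p was 0.0575 without haltere tsh replicate 1 and 0.285 without haltere tsh replicate 2. The zinc finger gene salr was higher in haltere cells, with 341 and 354 CPM in haltere cells and 212 and 243 CPM in wing cells (0.61 ± 0.09). So was its neighbour salm, with 626 and 604 CPM in haltere cells and 408 and 452 CPM in wing cells (0.52 ± 0.09). The call of salm was lost without haltere tsh replicate 1 (adjusted p = 0.101) or 2 (adjusted p = 0.0507). Of 10 genes of the leg axis, al, dac and C15 fell, and Dr, already described, rose. The homeobox gene al stood at 4.74 and 3.83 CPM in haltere cells and 31.5 and 25.8 CPM in wing cells, with no overlap. For al the log2 fold change was -2.75 ± 0.16 (adjusted p = 2.30e-06). C15 (-0.86 ± 0.20) lost its call without haltere tsh replicate 1 (adjusted p = 0.199), haltere tsh replicate 2 (0.209) or wing tsh replicate 1 (0.288).

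**Figure D3:**
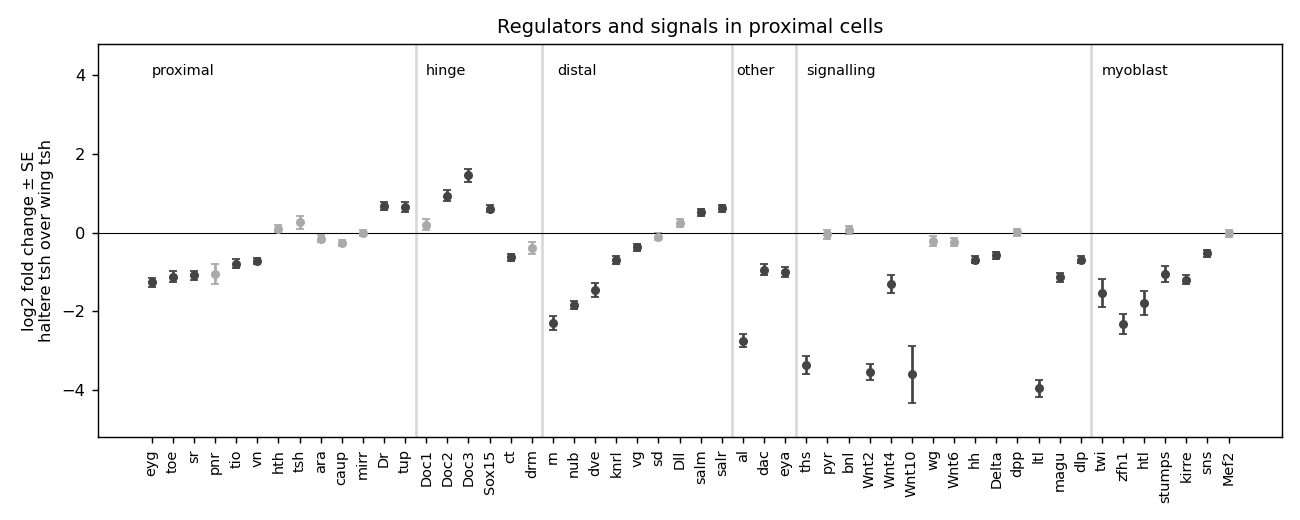
Log2 fold change of haltere over wing tsh cells with its SE (y axis) for regulators and signalling genes grouped by domain or role (x axis), 1 point per gene. Dark points met all conditions and light grey points did not. Proximal and distal regulators lie on both sides of 0, and ths, Wnt2, Wnt10 and ltl lie below -3.

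Among secreted signals, ligands of several pathways were lower in haltere proximal cells while others of the same pathways did not pass the test. The FGF8-like ligand gene ths (2R, 11756817 to 11814424) stood at 49.8 and 28.2 CPM in haltere cells and 419 and 381 CPM in wing cells, a separation of the groups by far more than either group's spread. For ths the log2 fold change was -3.36 ± 0.23 (adjusted p = 0.000188). The gene of the other ligand of the same receptor, pyr, stood at 94.9 and 80.8 CPM in haltere cells and 87.0 and 93.3 CPM in wing cells (-0.04 ± 0.12). The gene bnl, whose product binds a different FGF receptor, stood at 48.1 and 42.1 CPM in haltere cells and 44.0 and 42.1 CPM in wing cells (0.07 ± 0.11). Neither passed the test. Of 6 FGF genes, ths, the receptor gene htl and the adaptor gene stumps fell, with a median of -0.55 for the list.

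Of 20 Wnt pathway genes, 3 fell and 1 rose, with a median of 0.05 (-0.05 without wing tsh replicate 1). Wnt2 stood at 1.65 and 3.25 CPM in haltere cells and 28.8 and 29.8 CPM in wing cells, with both haltere values far below both wing values. For Wnt2 the log2 fold change was -3.55 ± 0.20 (adjusted p = 1.67e-06). Wnt10 fell at a low level, from 6.57 and 4.43 CPM in wing to 0.198 and 0.685 CPM in haltere cells (-3.61 ± 0.72). Wnt4 did too, from 11.2 and 7.49 to 2.90 and 4.57 CPM (-1.31 ± 0.23). Without haltere tsh replicate 1 their adjusted p was 0.16 and 0.0919. The main Wnt ligand gene of the discs, wg, did not pass, with 78.7 and 97.9 CPM in haltere cells and 96.2 and 108 CPM in wing cells. Nor did its neighbour Wnt6, with 52.4 and 51.7 CPM in haltere cells and 64.0 and 58.9 CPM in wing cells. Notum, which encodes an enzyme that inactivates Wnt ligands, rose (0.42 ± 0.09, adjusted p = 0.02), a call lost without haltere tsh replicate 1 (adjusted p = 0.139) or 2 (adjusted p = 0.151).

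In the BMP pathway 4 of 19 genes fell and none rose, with a median of -0.04. The ligand gene dpp was level (218 and 207 CPM in haltere cells and 201 and 221 CPM in wing cells, 0.01 ± 0.09). The genes that fell encode proteins that act on BMP ligands outside the cell. The gene ltl stood at 1.12 and 0.742 CPM in haltere cells and 13.6 and 15.2 CPM in wing cells. For ltl the log2 fold change was -3.97 ± 0.21 (adjusted p = 1.39e-06). In nub cells ltl was far higher, with means of 11.4 CPM in haltere and 462 CPM in wing, and fell too (-5.34 ± 0.13). The part of any distal cells among the tsh cells in its fall was not tested. The change of magu was -1.14 ± 0.10 (adjusted p = 6.12e-05), that of the glypican gene dlp -0.69 ± 0.09 (adjusted p = 0.00106) and that of the protease gene tok -0.37 ± 0.09. The haltere libraries were below the wing libraries for all 4, and the call of tok was lost without haltere tsh replicate 1 (adjusted p = 0.297) or 2 (adjusted p = 0.198). The ligand gene hh stood at 63.9 and 65.0 CPM in haltere cells and 97.0 and 111 CPM in wing cells (-0.69 ± 0.09, adjusted p = 0.00136). It was the 1 called gene of 11 in the Hedgehog list, whose median was 0.16, and without wing tsh replicate 1 the list had 2 lower calls. At an unadjusted p under 0.05 edgeR gave 7 Hedgehog genes, 5 of them higher in haltere cells. DESeq2 called 5 genes of that list and limma voom 2. In the EGF receptor list 2 of 15 genes fell, with a median of -0.06. These were vn and kek1, an inhibitor of the receptor, with 449.8 and 447 CPM in haltere cells and 719 and 716 CPM in wing cells (-0.68 ± 0.08, adjusted p = 0.000465). In the Notch list 4 of 22 genes fell, with a median of -0.17. The ligand gene Delta stood at 758 and 704 CPM in haltere cells and 1029 and 1150.0 CPM in wing cells (-0.58 ± 0.09). The glycosyltransferase gene fng (-0.36 ± 0.09) and the targets E(spl)m6-BFM (-3.60 ± 0.55) and E(spl)m7-HLH (-0.73 ± 0.15) were the others. The level of E(spl)m6-BFM was 0.593 and 0.685 CPM in haltere cells and 5.96 and 9.68 CPM in wing cells. The adjusted p of Delta was 0.0794 without haltere tsh replicate 2. That of fng was 0.374 and 0.139, and that of E(spl)m7-HLH 0.105 and 0.15, without haltere tsh replicate 1 and 2. Of 15 sensory organ genes 2 fell, with a list median of -0.44. Brd, a Notch-pathway regulator, stood at 18.6 and 13.6 CPM in haltere cells and 34.9 and 34.4 CPM in wing cells (-1.11 ± 0.15). The gene sca, for a secreted protein of proneural clusters, stood at 111 and 103 CPM in haltere cells and 211 and 220.2 CPM in wing cells (-1.01 ± 0.09). None of 10 JAK/STAT genes and none of 17 genes of Fat and Hippo growth control was called, with medians of 0.13 and 0.07 (0.09 and -0.04 without wing tsh replicate 1). At an unadjusted p under 0.05 edgeR gave 3 JAK/STAT genes and 1 Hippo gene, all higher in haltere cells, and DESeq2 and limma voom called 0 in either list.

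Markers of flight muscle precursors (adepithelial myoblasts) were lower in haltere tsh libraries in 6 of 13 cases and higher in none, with a median of -1.06. The repressor gene zfh1 stood at 6.52 and 5.25 CPM in haltere cells and 27.6 and 31.1 CPM in wing cells. For zfh1 the log2 fold change was -2.32 ± 0.25 (adjusted p = 0.000297). The FGF receptor gene htl stood at 3.95 and 4.40 CPM in haltere cells and 16.3 and 12.7 CPM in wing cells (-1.79 ± 0.32, adjusted p = 0.00824). The mesoderm factor gene twi stood at 3.62 and 3.42 CPM in haltere cells and 11.97 and 8.55 CPM in wing cells (-1.54 ± 0.35). The adaptor gene stumps, which acts below the FGF receptor, fell by 1.06 on the log2 scale. The genes kirre (-1.20 ± 0.12, adjusted p = 9.81e-05) and sns (-0.53 ± 0.10), for adhesion proteins of muscle fusion, fell as well. None of these 6 was at 0 in haltere cells, and haltere values were below wing values for each. The muscle factor gene Mef2 was level, with 98.5 and 95.9 CPM in haltere cells and 104 and 93.0 CPM in wing cells (-0.02 ± 0.09). In nub cells kirre had means of 111 CPM (haltere) and 66.9 CPM (wing), sns 113.5 and 118.6, and Mef2 113 and 95.3. The RNA of these genes was therefore not confined to tsh cells, and their values do not speak of myoblasts alone. By contrast, zfh1, htl, twi and stumps were lower in nub than in tsh cells of the same disc. Him, a myoblast marker, did not pass at its low level of 0.329 and 0.685 CPM in haltere cells and 3.75 and 3.93 CPM in wing cells (adjusted p = 0.144). The summed level of the list, which includes kirre, sns and Mef2, was 1080 and 1071 CPM in haltere and 1198 and 1365 CPM in wing libraries. Without wing tsh replicate 1, 5 members were called lower with a median of -0.83, and twi and stumps were not (adjusted p = 0.121 and 0.119). Without haltere tsh replicate 1 the adjusted p was 0.243 for twi, 0.109 for stumps, 0.108 for htl and 0.0685 for sns, and without haltere tsh replicate 2 it was 0.186, 0.0876, 0.0685 and 0.126. The part of a different share of myoblasts in the results of the other lists was not tested.

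Markers of other cell types were examined in the same way. In the tracheal list 3 of 13 fell (vvl, Gasp and knrl), with a median of -0.15, and without wing tsh replicate 1 it gave 5 lower and 1 higher call. The POU gene vvl stood at 113 and 108 CPM in haltere cells and 179 and 198 CPM in wing cells (-0.77 ± 0.10). In nub cells the means were 552 CPM (haltere) and 1482 CPM (wing) for vvl and 267 and 326 CPM for Gasp, above their tsh levels. Only knrl was lower in nub than in tsh cells, so these falls do not speak of tracheal cells alone. The genes trh (0.63) and btl (0.64), which define tracheal cells, did not pass. Without wing tsh replicate 1 the change of trh was 0.82. The nub means of trh were 65.8 CPM (haltere) and 196.5 CPM (wing), above its tsh means of 26.8 and 17.4 CPM. Its values therefore do not speak of tracheal cells alone either. Those of btl were lower in nub cells, at 3.165 and 1.17 CPM. None of 6 hemocyte markers was called by edgeR or limma voom, while DESeq2 called 1 and 1 had an unadjusted p under 0.05. Hml stood at 1.19 and 1.20 CPM in haltere cells and 10.5 and 0 CPM in wing cells, highest in wing tsh replicate 1. Of 5 fat body markers Apoltp, for a lipid transfer protein, fell, with 1.25 and 1.31 CPM in haltere cells and 33.1 and 16.9 CPM in wing cells (-4.28 ± 0.45, adjusted p = 0.000528). The storage protein gene Lsp1beta was at 0.0658 and 0.0571 CPM in haltere cells and 2.09 and 0.0624 CPM in wing cells. Of 13 neuron and glia markers 2 fell. The gene ana, for a secreted glial glycoprotein, stood at 1.19 and 0.228 CPM in haltere cells and 37.0 and 27.8 CPM in wing cells (-5.58 ± 0.37, adjusted p = 9.22e-05). The microtubule protein gene futsch stood at 41.2 and 46.1 CPM in haltere cells and 73.9 and 68.7 CPM in wing cells (-0.71 ± 0.10). Both genes were higher in nub cells, with means of 24.9 CPM (haltere) and 595.5 CPM (wing) for ana and 74.6 and 79.5 CPM for futsch. The cell type behind either fall was not tested. The glial factor gene repo was at 0.724 and 0.228 CPM in haltere cells and 2.76 and 0.187 CPM in wing cells, and it did not pass. Nor did the neuronal gene elav, with 147 and 146 CPM in haltere cells and 139 and 147 CPM in wing cells. The genes brp (1.05 and 1.03 against 15.2 and 1.498 CPM) and para (2.37 and 1.88 against 17.4 and 1.87) were raised only in wing tsh replicate 1. Without that library the medians of the hemocyte, fat body and neuron lists were 0.93, -0.13 and 0.02 in place of -1.33, -1.79 and -0.55.

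Genes of the cuticle and the apical matrix changed in both directions. Cpr47Ee, a gene of a chitin-binding cuticle protein, stood at 21.7 and 22.8 CPM in haltere cells and 1.84 and 1.31 CPM in wing cells. For Cpr47Ee the log2 fold change was 3.82 ± 0.28 (adjusted p = 1.40e-05). The cuticle gene TwdlT stood at 0.263 and 0.114 CPM in haltere cells and 14.4 and 17.4 CPM in wing cells. It had 6 counts over both haltere and 514 over both wing libraries, a ratio of 86.5 in favour of the wing (95% interval 39.5 to 237, counting error only). For TwdlT the log2 fold change was -6.41 ± 0.58 (adjusted p = 6.12e-05). Cpr12A stood at 50.2 and 39.9 CPM in haltere cells and 196 and 238 CPM in wing cells. For Cpr12A the log2 fold change was -2.27 ± 0.15 (adjusted p = 1.22e-05). The groups were clearly apart for these 3 genes, and they moved in opposite directions within 1 family. Of 59 cuticle genes tested, 2 rose and 3 fell, with a median of -0.93 over all and of 0.07 over the 17 at 5 CPM or more. Without wing tsh replicate 1 the median over all was 0.02, with 2 higher and 5 lower calls. Cpr65Ec rose (150.1 and 147 CPM in haltere cells and 50.7 and 66.4 CPM in wing cells, 1.34 ± 0.24) and TwdlE fell (-1.53 ± 0.34). Both calls were lost without haltere tsh replicate 1 (adjusted p = 0.161 and 0.104), haltere tsh replicate 2 (0.112 and 0.203) or wing tsh replicate 1 (0.236 and 0.184).

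Cht5 (3R, 13767549 to 13770732), a chitinase gene that acts in cuticle turnover, stood at 245 and 222 CPM in haltere cells and 55.8 and 58.2 CPM in wing cells. For Cht5 the log2 fold change was 2.03 ± 0.09 (adjusted p = 3.36e-07). Idgf4, a chitinase-like growth factor gene, stood at 932 and 958 CPM in haltere cells and 461 and 489 CPM in wing cells. For Idgf4 the log2 fold change was 0.99 ± 0.09 (adjusted p = 6.12e-05). The haltere values of both genes were above the wing values. Gasp (-0.77 ± 0.12), for a chitin-binding protein, and Cht6 (-0.59 ± 0.08) fell, so that the 21 genes of the chitin list split into 2 higher and 2 lower, with a median of -0.01 (4 and 2, with a median of 0.16, without wing tsh replicate 1). Without haltere tsh replicate 2 the adjusted p of Gasp was 0.0678.

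The neighbours m (X, 11754273 to 11769508) and dy (X, 11769769 to 11778784) encode transmembrane proteins with a zona pellucida domain that organise the cuticle of wing cells, and they lie 261 bases apart. The level of m was 0.593 and 1.03 CPM in haltere cells and 11.5 and 12.9 CPM in wing cells (-3.89 ± 0.24, adjusted p = 3.02e-06). That of dy was 3.88 and 2.23 CPM in haltere cells and 25.7 and 24.7 CPM in wing cells (-3.06 ± 0.22, adjusted p = 1.22e-05). Both genes were low in haltere and well above it in both wing libraries. A list of 13 zona pellucida domain genes was drawn up after values were seen. Of these genes 5 fell and none rose, with a median of -0.60. Such a choice can build in these counts, and 2.00% of all genes tested were lower under the same conditions. All 13 fold changes were negative over the 4 libraries, but without wing tsh replicate 1 those of dyl (0.74), zye (0.21) and nompA (0.05) were positive and did not pass. The others were tyn (121 and 119 CPM in haltere cells and 206 and 233 CPM in wing cells, -0.87 ± 0.09), mey (-0.63 ± 0.11) and neo (-0.60 ± 0.11). The call of mey was lost without haltere tsh replicate 1 (adjusted p = 0.107) and that of neo without either haltere library (0.16 and 0.0884).

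Further genes named by the size of their change are described singly. Ance, an angiotensin-converting enzyme homolog, stood at 433 and 367 CPM in haltere cells and 1638 and 1784 CPM in wing cells. For Ance the log2 fold change was -2.10 ± 0.17 (adjusted p = 0.000146). Its neighbour Ance-2, 121 bases away, stood at 3.56 and 2.63 CPM in haltere cells and 14.7 and 12.9 CPM in wing cells (-2.16 ± 0.41). Haltere values were below both wing values for each gene, though the call of Ance-2 was lost without haltere tsh replicate 1 (adjusted p = 0.101) or 2 (adjusted p = 0.139). The metallopeptidase gene Nep1 rose, with 77.7 and 72.0 CPM in haltere cells and 32.4 and 28.0 CPM in wing cells (1.31 ± 0.10, adjusted p = 2.60e-05). So did Dh31-R, for a receptor of the peptide DH31, with 186 and 189.7 CPM in haltere cells and 75.2 and 92.4 CPM in wing cells (1.17 ± 0.12, adjusted p = 0.000151). Haltere values were above wing values for both. The transcription factor gene Glut4EF (1.13 ± 0.09) and the gene pxb (1.17 ± 0.09) rose too. The immune receptor gene PGRP-LC fell, with 2.37 and 1.77 CPM in haltere cells and 14.5 and 10.9 CPM in wing cells (-2.62 ± 0.25). The HMG-box gene Sox102F fell, with 19.7 and 19.4 CPM in haltere cells and 82.0 and 91.8 CPM in wing cells (-2.15 ± 0.10, adjusted p = 3.36e-07). The gene CG4607 had 0 counts in both haltere libraries and 357 in the wing libraries, and was at least 120-fold lower, taking a floor of 3 counts for both haltere libraries together. CG5687 had 2 counts against 234, a ratio of 118 (95% interval 32.3 to 981), and an adjusted p of 0.0675 without haltere tsh replicate 2. A further group of genes known only by number or unmatched to a symbol made up 34 of the 116 higher and 79 of the 224 lower genes.

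**Figure D4:**
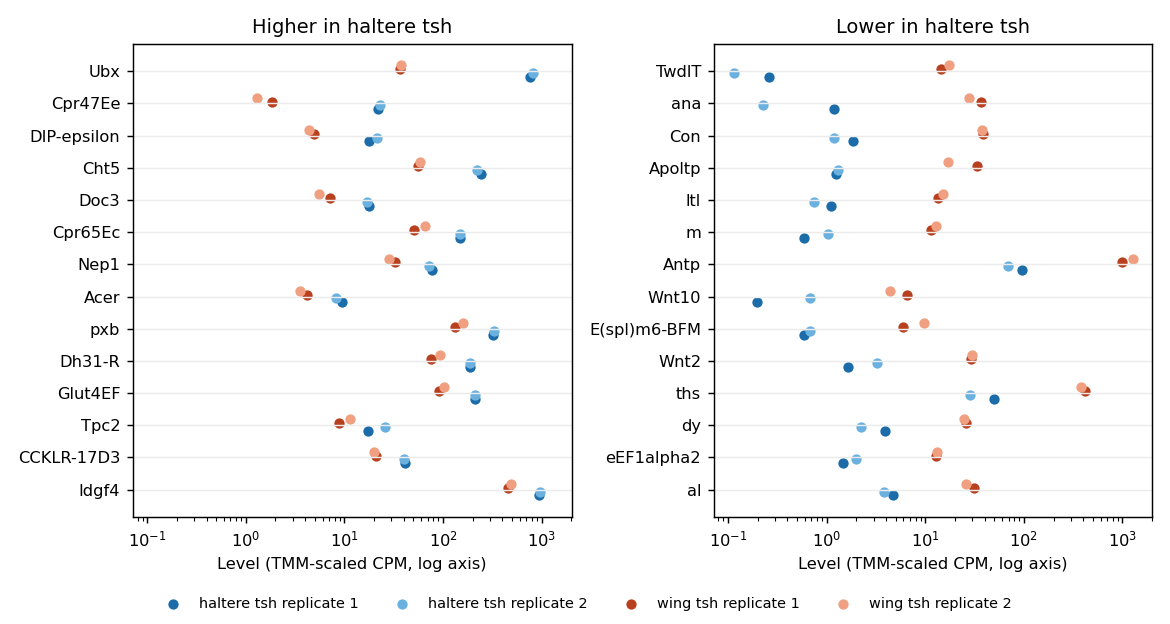
Level in TMM-scaled CPM (x axis, log scale) of the 14 named protein-coding genes with the largest rise (left) and the 14 with the largest fall (right) in haltere tsh cells, 1 point per library. The blue haltere points and the red wing points do not overlap in any row, which held for every changed gene. Ubx lies near 800 against 37 CPM and Con near 1.5 against 38 CPM.

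Genes of adhesion and guidance were described through a pair of lists. Con, a homophilic adhesion protein gene with leucine-rich repeats, stood at 1.84 and 1.20 CPM in haltere cells and 38.6 and 37.9 CPM in wing cells, and the groups were far apart. For Con the log2 fold change was -4.66 ± 0.25 (adjusted p = 1.39e-06). Of 27 leucine-rich repeat and adhesion genes 7 fell and none rose, with a median of -0.37 (-0.17 without wing tsh replicate 1). The gene caps held without any single library, with 95.3 and 95.0 CPM in haltere cells and 146 and 157 CPM in wing cells (-0.67 ± 0.08, adjusted p = 0.000522). Calls of trn (-0.47), Ten-a (-0.46) and haf (-0.38) were each lost without haltere tsh replicate 1 (adjusted p 0.114 to 0.349) or 2 (0.0617 to 0.168), and haf also without wing tsh replicate 1 (0.0526). In a list of 24 guidance and immunoglobulin genes drawn up after values were seen, 9 fell and 3 rose, with a median of -0.28. Such a choice can build in these counts, and 2.00% of all genes tested were lower and 1.04% higher. The N-cadherin gene CadN stood at 107 and 113 CPM in haltere cells and 195 and 198 CPM in wing cells (-0.84 ± 0.08, adjusted p = 0.000106). The motor axon guidance gene side stood at 3.95 and 3.65 CPM in haltere cells and 27.6 and 17.3 CPM in wing cells (-2.56 ± 0.24, adjusted p = 9.45e-05). The haltere values of both were below the wing values. The midline guidance gene comm rose (97.7 and 79.98 CPM in haltere cells and 46.8 and 47.1 CPM in wing cells, 0.92 ± 0.12, adjusted p = 0.000724). DIP-epsilon, for an immunoglobulin protein that binds Dpr proteins, stood at 17.9 and 21.4 CPM in haltere cells and 4.91 and 4.37 CPM in wing cells (2.08 ± 0.20, adjusted p = 0.000107). With dpr16 (-1.22) it was one of 2 called genes among 20 of the dpr and DIP families, whose median was -2.36 (0.29 without wing tsh replicate 1). The call of dpr16 was lost without haltere tsh replicate 1 (adjusted p = 0.122) or 2 (adjusted p = 0.0606).

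Matrix genes went both ways, 2 of 20 higher and 3 lower, with a median of -0.17. The laminin chain gene wb fell, with 63.5 and 68.9 CPM in haltere cells and 137 and 141 CPM in wing cells (-1.07 ± 0.08, adjusted p = 1.94e-05). The perlecan gene trol (-0.65 ± 0.08, adjusted p = 0.000816) and the collagen-binding protein gene SPARC (-0.98 ± 0.19) fell as well. The call of SPARC was lost without haltere tsh replicate 1 (adjusted p = 0.128) or 2 (adjusted p = 0.0962). The alpha integrin gene if rose, with 131 and 135 CPM in haltere cells and 89.0 and 90.02 CPM in wing cells (0.57 ± 0.08, adjusted p = 0.00152). The gene mew, for another alpha chain, rose by less (0.35 ± 0.08, adjusted p = 0.26 and 0.216 without haltere tsh replicate 1 and 2). The collagen gene Mp, outside the list, rose as well (541 and 536 CPM in haltere cells and 266 and 281 CPM in wing cells, 0.98 ± 0.08, adjusted p = 2.60e-05).

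Growth and housekeeping lists held few or no calls. None of 23 cell cycle genes was called by edgeR (median 0.12), with 7 at an unadjusted p under 0.05, all higher, and 2 called by DESeq2 and 0 by limma voom. Of 82 ribosomal protein genes none was called (median 0.04), with 2 at an unadjusted p under 0.05. Of 20 death, JNK and stress genes none was called (median -0.16), with 3 at an unadjusted p under 0.05. DESeq2 and limma voom called 0 in both lists, but without wing tsh replicate 1 edgeR called 3 of the death, JNK and stress genes lower (median -0.22), and the ribosomal median was -0.12. In the yellow family (11 genes, median 0.35), the Osiris genes (11, median -1.98) and the aquaporins (7, median -0.11) edgeR and limma voom called 0. The counts at an unadjusted p under 0.05 were 6, 6 and 1, and those of DESeq2 were 1, 2 and 0. Without wing tsh replicate 1 the medians were 0.46, 0 and -0.02, and 1 Osiris gene and 1 aquaporin gene were called higher. The glutathione transferase gene GstT4 rose (0.62 ± 0.14) as 1 of 27 in its family, and the serpin gene Spn47C fell (-0.57 ± 0.11) as 1 of 22, where 3 were called lower without wing tsh replicate 1. The call of GstT4 was lost without haltere tsh replicate 1 (adjusted p = 0.302) or wing tsh replicate 2 (0.06), and that of Spn47C without haltere tsh replicate 1 (0.0952) or 2 (0.131). No gene of 50 cytochromes P450 or of 74 chemosensory receptor and binding protein genes met all conditions, although 1 and 2 of them were called under the level of 5 CPM. Without wing tsh replicate 1 the same lists had 1 and 2 lower calls. A list of 17 spindle and cytokinesis genes was drawn up after values were seen. All 17 fold changes were positive and 10 genes rose, with a median of 0.34. Such a choice can build in both counts, and 1.04% of all genes tested were higher under the same conditions. The kinesin gene ncd was at 58.3 and 54.4 CPM in haltere cells and 40.5 and 42.3 CPM in wing cells (0.44 ± 0.10). The chromosomal passenger gene Incenp was at 151 and 139 CPM in haltere cells and 108 and 113 CPM in wing cells (0.39 ± 0.08), and both haltere values were above both wing values for each. All 10 calls were lost without haltere tsh replicate 1 (adjusted p 0.105 to 0.297) or 2 (0.0686 to 0.16), and 9 without wing tsh replicate 1 (0.0529 to 0.158). Of 20 ecdysone genes ImpE3 (118 and 120.3 CPM in haltere cells and 185 and 232 CPM in wing cells, -0.81 ± 0.11) and ImpE2 (-0.72 ± 0.14) fell. The unadjusted p of edgeR was under 0.05 for 9 of the 20, 1 of them higher in haltere cells. DESeq2 called 6 of the list and limma voom 2. The list had a median of -0.37, and 5 members were called lower without wing tsh replicate 1. The steroid-induced gene ImpE1 stood at 2111 and 2212 CPM in haltere cells and 3174 and 4802 CPM in wing cells, and Hr4, for a nuclear receptor, at 798 and 1345 CPM in wing cells. The wing replicates thus differed from each other, and the part of developmental timing was not tested. The call of ImpE2 was lost without haltere tsh replicate 1 (adjusted p = 0.198) or 2 (adjusted p = 0.108).

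The distal cells of the same discs, in other libraries, were compared in the same fit, and 2614 of 11198 genes (23.3%) were called. The haltere nub libraries were deeper, with 96525031 and 92342738 counts against 17291927 and 17705451 in wing nub cells, and the part of depth in the number of calls was not tested. Of all genes tested, 9.72% were higher and 13.6% lower in haltere nub cells. Of the 340 proximal genes, 192 (56.5%) were also called between haltere and wing nub cells, 116 in the same direction and 76 in the opposite one. The difference between the proximal and the distal fold change (disc by domain interaction) passed the test for 206 of the 340 (60.6%), against 15.4% of all genes tested, and for all 76 with opposite calls. The 340 were selected by the tsh fold change, which is also part of the interaction, so a raised share was built in. Opposite calls in the domains likewise made a called interaction close to certain. Across the 340 genes the fold changes of proximal and distal cells had a Pearson's r of 0.31, a description across genes from libraries of 2 driver lines. A total of 41 genes changed at least 2-fold in the same direction in both domains, and 20 at least 2-fold in opposite directions. The rise of Ubx was smaller in proximal than in distal cells, where it was 9.24 ± 0.40 (interaction -4.82 ± 0.46, adjusted p = 0.00128). Antp had -3.78 ± 0.17 in proximal and -3.03 ± 0.17 in distal cells, a difference that did not pass (adjusted p = 0.0528). The gene ths was lower in haltere proximal and higher in haltere distal cells (interaction -5.76 ± 0.34, adjusted p = 5.91e-05). Its means were 39.0 CPM (haltere) and 399.5 CPM (wing) in tsh cells and 53.3 and 10.1 CPM in nub cells. Wnt4, eyg and frm had the same pattern, with interactions of -3.77 ± 0.27, -3.56 ± 0.17 and -4.00 ± 0.23. Cht5 (interaction 3.83 ± 0.12, adjusted p = 9.30e-09) and Nep1 (3.18 ± 0.15) did the reverse. Cht5 had means of 233.5 CPM (haltere) and 57.0 CPM (wing) in tsh cells and of 22.9 and 79.1 CPM in nub cells. The Doc genes went opposite ways in the domains: Doc2 was 0.94 ± 0.14 in proximal and -6.14 ± 0.14 in distal cells (interaction 7.08 ± 0.19, adjusted p = 6.06e-09), and Doc3 was 1.46 ± 0.16 and -4.29 ± 0.16. Con and TwdlT, which fell in proximal cells, did not pass the test in distal cells, where they stood at -0.08 ± 0.34 and -0.70 ± 0.50 on the log2 scale. Their nub means were only 0.680 CPM (haltere) and 0.723 CPM (wing) for Con and 0.405 and 0.665 CPM for TwdlT. At such levels a difference between the discs in distal cells could not be read. The interactions of Con and TwdlT passed, at -4.58 ± 0.40 (adjusted p = 2.92e-05) and -5.70 ± 0.77 (adjusted p = 0.000818). Each subtracts a nub change that could not be read, so it adds little to the fall in tsh cells. The homeobox gene al (interaction 0.54 ± 0.21, adjusted p = 0.104) and magu (interaction -0.14 ± 0.14, adjusted p = 0.517) fell in both, and the difference between domains did not pass the test.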

How the data were processed

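Whole-number read counts per gene, deposited by the authors as 1 file per RNA-seq library, were used for 17807 FlyBase IDs, of which 17710 matched a symbol. The counts carry no normalization, as their differing totals show, and the 97 unmatched IDs held 0.62% to 0.71% of a library. Per the submitters' processing notes the build was dm6, and HISAT2, Bowtie2, deepTools and bcl2fastq are named with no role. Which tool counted reads, on which annotation and strand, and how it treated multimapping reads is not given in the sources used here. Coordinates are those of the RefSeq table of Release 6, the assembly of dm6.

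The 8 libraries were fitted in 4 groups with edgeR 4.0.16 (R 4.3.3): filterByExpr (11198 genes kept, 6609 left out), TMM scaling, robust quasi-likelihood, 4 residual degrees of freedom, two-sided tests, Benjamini-Hochberg adjustment over all genes kept. The common biological coefficient of variation was 19.9%. CPM in the text are TMM-scaled, in the order replicate 1 then replicate 2, log2 fold changes are haltere over wing with the SE, and list counts are of genes that met all conditions. Replicates differed by a chi-square per gene of 9.00 in haltere tsh and 21.0 in wing tsh cells, more than sampling noise. Members and lists were chosen with earlier results of these data known. Genes were named by rule: the markers, the 15 largest changes each way, called list members and genes opposite in nub cells, and others were chosen after their values were seen. The list symbols hbs, esg, Med and 18w were not matched, and the cuticle pattern was narrowed to leave out the P450 reductase Cpr. Floors of 3 counts and intervals cover counting error only. Alternatives were RLE scaling, no filter, other levels, DESeq2 1.42.0, limma 3.58.1 (voom with quality weights), the tsh libraries alone, non-robust dispersions, a replicate block and leaving out each tsh library. The fit was tested on simulated data. Samples of ATAC-seq (17) and of ChIP-seq with inputs (11) were not used here.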

Additional observations from a re-analysis of the deposited data

Results flagged for a closer look

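For 206 of the 340 changed genes, the difference between haltere and wing in tsh cells was itself different from that in nub cells, by the interaction term of edgeR's quasi-likelihood test. The 340 were selected by the tsh fold change, which is part of that term, so a high share was built in. The 20 genes that changed at least 2-fold in opposite directions in the domains are given here with their interaction (the log2 fold change in tsh cells minus that in nub cells). Lower in haltere tsh and higher in haltere nub cells were CG13023 (-9.74), ths (-5.76), frm (-4.00), dpr16 (-3.98), LUBEL (-3.83), Wnt4 (-3.77), CG11380 (-3.64), eyg (-3.56), CG5921 (-3.26), Brd (-2.80), C901 (-2.78), NT1 (-2.69), beat-IIIc (-2.39), kon (-2.26) and CG14598 (-2.20). CG13023 had means of 9.46 CPM in haltere and 236.5 CPM in wing tsh cells and of 226 and 6.78 CPM in the nub cells of the same discs, and its tsh call was lost without wing tsh replicate 1 (adjusted p = 0.111). The neurotrophin-like gene NT1 had means of 11.99 CPM (haltere) and 38.4 CPM (wing) in tsh cells and of 8.01 and 3.98 CPM in nub cells. Higher in haltere tsh and lower in haltere nub cells were Doc3 (5.74), the small nucleolar RNA gene snoRNA:Psi28S-2442b (4.24), Cht5 (3.83), Nep1 (3.18) and CG3355 (2.63). The snoRNA had means of 111 CPM (haltere) and 47.6 CPM (wing) in tsh cells and of 9.92 and 80.4 CPM in nub cells. Groups of 2 libraries are too small for a test of single outlying samples.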

How the results depend on the processing

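No gene of the 340 changed direction under any alternative. The tsh groups did not overlap in any of these genes, so their selection left little room for a reversal. Against 365 calls (116 higher, 249 lower), DESeq2 gave 720 (187 and 533; 186 higher with level and agreement) and the 4 tsh libraries alone 241 (76 and 165; 76 higher with level and agreement). Without a filter on low counts 193 were higher (191 with level and agreement), and with limma voom quality weights 76 (76). At a level of 20 CPM, 13 higher and 56 lower genes changed at least 2-fold, in place of 22 and 113. Leaving out each tsh library gave 177 to 1621 calls, 42 to 419 higher and 135 to 1202 lower. The lowest came without haltere tsh replicate 1 and the highest without wing tsh replicate 2, when replicate 1 stood alone for the wing. With level and agreement the ranges were 42 to 101 higher and 131 to 279 lower (wing tsh replicate 2 gives no value, since agreement needs it), at least 2-fold 19 to 36 and 88 to 107, and interactions 108 to 250. Deviations of same-numbered libraries from their group means had r of -0.251 to 0.106. With 2 libraries a group, and wing tsh replicate 1 apart from the rest, such values cannot exclude a shared cohort or batch. With a replicate block 315 genes were called (98 higher, 217 lower), 98 and 205 with level and agreement, with 178 interactions. Of the 340 calls, RLE scaling lost 2, DESeq2 7, no filter 26, non-robust dispersions 23, the block 52, voom 89 and the 4 tsh libraries alone 117. Causes were not tested. With 2 libraries a group, many calls hung on a single library, among them changes of more than 2-fold such as those of Wnt10, Ance-2 and twi. Genes under 5 CPM could not be read because of the raised low counts of wing tsh replicate 1.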

Other observations

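Changed genes were listed by position in the RefSeq table. Of 337 with a position, 70 pairs of next neighbours among them lay within 50 kb, 47 of these with the same direction (34 both lower, 13 both higher) and 23 with opposite directions, and 13 pairs overlapped. Lower genes made up 224 of the 340, so many pairs would share a direction in any order, and no expected share was computed. Pairs of related genes that fell together were eyg and toe, m and dy, Ance and Ance-2, kirre and rst, NetA and NetB, and E(spl)m6-BFM and E(spl)m7-HLH, and pairs that rose together were Doc2 and Doc3, and comm and comm2. Of these, NetA (-0.52 ± 0.12, edgeR's adjusted p = 0.0467) and comm2 (0.59 ± 0.13, adjusted p = 0.0302) passed narrowly. Without wing tsh replicate 1 their changes were smaller, at -0.42 and 0.48. Cht5 (2.03) and CG9312 (-1.52), 446 bases apart, went opposite ways. Reads of overlapping genes such as kirre and rst cannot be told apart without the use of strand.

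Changed genes stood on every large chromosome, with 18 higher and 42 lower on X, 18 and 43 on 2L, 30 and 35 on 2R, 21 and 49 on 3L, and 28 and 52 on 3R. Genes at 5 CPM or more numbered 1319 on X, 1330 on 2L, 1528 on 2R, 1508 on 3L and 1825 on 3R. Over all genes, 116 higher and 224 lower stood among 7647 at that level.

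A few larval cuticle and pigment genes were high in 1 haltere library alone and were not called. Pcp stood at 35.2 and 2.68 CPM in haltere cells and 2.09 and 1.498 CPM in wing cells, and Lcp1 at 30.2 and 2.46 CPM in haltere cells and 3.01 and 3.81 CPM in wing cells. The gene yellow-c stood at 23.5 and 4.68 CPM in haltere cells and 2.70 and 2.93 CPM in wing cells.

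The RNA-binding protein gene cpo was lower in haltere tsh cells (24.5 and 22.8 CPM in haltere cells and 50.1 and 44.2 CPM in wing cells, -0.996 ± 0.11, adjusted p = 0.000215) and higher in haltere nub cells (3.74 ± 0.11). The protease gene Sb, which acts in the shaping of everting discs, was higher in haltere tsh cells (815 and 749.9 CPM in haltere cells and 425 and 511 CPM in wing cells, 0.74 ± 0.10, adjusted p = 0.00173) and lower in haltere nub cells (-1.36 ± 0.11). These genes were chosen after their values were seen. The interaction of cpo was -4.74 ± 0.15 (adjusted p = 9.30e-09), and that of Sb was 2.10 ± 0.15 (adjusted p = 6.38e-06).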
